A study of Mus musculus with 10 samples.

Results

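The comparison described here is the difference between 2 effects of CpG, the one in mice lacking both anaphylatoxin receptor genes minus the one in wild-type mice, in dendritic cells (DCs) of the spleen. It was estimated for each gene as CpG minus unstimulated in C3ar1-/-C5ar1-/- DCs, called DKO below, minus CpG minus unstimulated in wild-type (WT) DCs. A negative value means that the change under CpG was lower, on the log2 scale, in the DKO. All genes with a probe set carrying exactly 1 gene symbol were eligible, which gave 22180 genes, and 13371 of them passed a filter on low values and were tested. The filter used all arrays without regard to group.

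The cells were CD11c+ DCs taken with magnetic beads from the spleens of WT or DKO mice 4 h after they received 100 µg CpG or vehicle by injection, and each sample was hybridised to 1 Affymetrix Mouse Gene 2.0 ST array. There were 2 unstimulated and 3 CpG arrays of WT DCs, and 2 unstimulated and 3 CpG arrays of DKO DCs, 10 in all. The receptors were missing from the whole animal, so the cells and their surroundings both lacked them. The labels name neither the ages nor the sexes of the mice, and nothing states whether arrays of a group came from separate animals, so the p-values measure the spread between these samples. Values are log2 intensities, and the number of arrays limits their precision. Changes are given as log2 differences with the standard error (SE) from the fit, so that a value of 1 is a 2-fold change.

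CpG oligonucleotides are short DNAs with unmethylated CG motifs that are read by Toll-like receptor 9 (TLR9) in endosomes. TLR9 signals through MYD88 to NF-kB and to interferon regulatory factors, and DCs then make cytokines, raise costimulatory molecules and lose many genes of their resting state. C3AR1 and C5AR1 are G protein-coupled receptors for C3a and C5a, the small fragments released when complement proteins C3 and C5 are cleaved.

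Markers of other cell types and Y-linked genes varied between arrays. The DC gene Itgax, which encodes CD11c, lay between 10.72 and 11.89 in the 10 arrays, and H2-Aa, a class II chain, between 12.86 and 13.13. Y-linked genes had mean values of 7.93, 7.75 and 7.33 in DKO unstimulated 1, DKO CpG 1 and DKO CpG 2, and of 3.21 to 3.68 in the other 7 arrays. The median centred level of 28 neutrophil markers was 1.51 and 1.62 in WT CpG 1 and 2 and at most 0.455 in the other arrays. That of 33 splenic macrophage markers was -1.05 and -1.02 in DKO unstimulated 2 and DKO CpG 3 and at least 0.0148 in the others. Replicate numbers only name the arrays. For the genes and lists noted below as following these markers, values without 1 of those arrays at a time are given beside them. No fit left out both WT CpG 1 and 2, so a value without 1 of them still holds the other.

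Tarm1, which encodes an activating receptor of myeloid cells that pairs with the Fc receptor gamma chain, was the single gene called for the difference of the effects. Its value was 7.51 and 7.43 in unstimulated WT DCs and 10.37, 10.35 and 10.25 in WT DCs after CpG. In DKO DCs it was 7.51 and 7.39 unstimulated and 8.16, 7.64 and 8.36 after CpG. The unstimulated arrays of both genotypes overlapped, and all 3 WT CpG arrays lay above all 3 DKO CpG arrays with no overlap. Tarm1 rose by 2.86 in WT, a 7.24-fold change (limma, adjusted p = 3.5e-05), while its change in the DKO was 0.60, or 1.52-fold (adjusted p = 0.061). The difference of the effects was -2.25 ± 0.256 with a 95% interval from -2.82 to -1.69 (adjusted p = 0.0490). Without WT CpG 1 the difference was -2.23, without WT CpG 2 it was -2.24, and in a fit that included the neutrophil marker level it was -2.26.

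That call covered 1 of 13371 genes, or 0.00748% of those tested, and no gene was called in the higher direction (0%). At an unadjusted p under 0.05, 756 genes or 5.65% differed, 444 of them (3.32%) with a higher and 312 (2.33%) with a lower effect in the DKO. The adjusted p of Tarm1 lay just inside the threshold, and the next genes, Pdcd1lg2 and Prrt2, had an adjusted p of 0.509. Over the 12 alternative settings, the difference for Tarm1 ranged from -2.50 to -1.89 and its adjusted p from 0.0143 to 0.0914. Tarm1 did not pass with the macrophage marker level as a covariate (adjusted p = 0.0512), the neutrophil marker level (0.0799) or the title series as a block (0.0669). It also did not pass on quantile-normalised values (0.0556) or over the 7 arrays without Y-linked signal (0.0914). With 1 array left out in turn the difference stayed between -2.40 and -2.05. The adjusted p was then 0.00810 without DKO CpG 2 and 0.00988 without DKO CpG 3. It was 0.0847 without WT CpG 3 and between 0.135 and 0.621 without any 1 of the other 7 arrays.

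Tarm1 lies on mouse chromosome 7, which also carries C5ar1, and 89 tested genes lay between them in RefSeq's gene order. C3ar1 is on chromosome 6. Of the tested genes beside Tarm1, the 4 before it and 5 after it had differences from -0.72 to -0.06. Cacng8, a calcium channel subunit gene, was the only one of these 9 with an unadjusted p under 0.05, at -0.72 ± 0.280 (adjusted p = 0.851). None of the 9 neighbours reached the size seen for Tarm1.

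Promoter windows of leading genes with lower effects are shown because these genes moved together with the CpG response in WT. Each window holds 250 bases before and 50 bases after the gene's start in RefSeq (GRCm38.p6), 5′ to 3′ on the gene's strand. Windows were found for 14 of 20 genes, the 10 named genes with the smallest p in each direction. Tarm1 is at chr7:3502575-3502874 on the minus strand, Pdcd1lg2 at chr19:29410669-29410968 on the plus strand and Apol10b at chr15:77596076-77596375 on the minus strand. Strings for 4 motifs were searched on both strands, and capitals mark a match.
Tarm1: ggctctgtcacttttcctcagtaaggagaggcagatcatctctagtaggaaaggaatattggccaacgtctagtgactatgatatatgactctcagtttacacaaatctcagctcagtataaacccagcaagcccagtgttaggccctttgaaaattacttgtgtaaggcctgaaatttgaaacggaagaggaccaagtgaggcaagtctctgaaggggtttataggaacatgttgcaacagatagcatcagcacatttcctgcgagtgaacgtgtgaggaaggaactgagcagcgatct
Pdcd1lg2: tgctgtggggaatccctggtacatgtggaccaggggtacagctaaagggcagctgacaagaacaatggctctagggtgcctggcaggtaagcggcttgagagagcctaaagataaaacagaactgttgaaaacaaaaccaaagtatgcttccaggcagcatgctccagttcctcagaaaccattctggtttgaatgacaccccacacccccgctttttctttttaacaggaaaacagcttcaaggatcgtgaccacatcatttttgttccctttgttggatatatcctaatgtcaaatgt
Apol10b: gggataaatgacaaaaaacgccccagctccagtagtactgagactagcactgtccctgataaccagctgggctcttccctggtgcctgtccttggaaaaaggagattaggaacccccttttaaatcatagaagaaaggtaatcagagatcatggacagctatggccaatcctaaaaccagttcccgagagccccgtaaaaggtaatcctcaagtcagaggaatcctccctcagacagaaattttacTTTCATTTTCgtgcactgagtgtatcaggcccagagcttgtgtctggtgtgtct
The Tarm1 and Pdcd1lg2 windows held none of the 4 strings. The Apol10b window held the interferon-response string (GAAA, any 2 bases, GAAA) on the opposite strand, starting 4 bases before the gene's start. That string occurred in 3.44% of all 32851 windows, the NF-kB string (GGGA, any 2 bases, TTCC) in 1.47%, the AP-1 string TGANTCA in 7.81% and the cyclic AMP response string TGACGTCA in 1.79%. These 14 genes had 18 windows, as some have several starts. The interferon-response string was found for 2 genes, Apol10b and Cd59a, the AP-1 string in 1 of the windows of Kcne3, and the other strings in 0. The strings do not overlap each other in these windows.

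The next genes with a lower effect in the DKO did not pass the adjusted threshold, and their values are given as measured. Leading genes of both directions were chosen by the p of the difference, so arrays that do not overlap are no separate result. Pdcd1lg2 encodes PD-L2, a ligand of the inhibitory receptor PD-1 on T cells. It read 6.95 and 6.78 in unstimulated WT DCs and 9.22, 9.24 and 9.46 after CpG, against 7.35 and 7.73 and then 8.75, 8.42 and 8.73 in the DKO. The DKO lay above WT before CpG and below it afterwards, with no overlap at either stage. Pdcd1lg2 rose in both genotypes, 5.43-fold in WT and 2.13-fold in the DKO, and the difference of the effects was -1.35 ± 0.224 (adjusted p = 0.509).

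Csta3, a member of the stefin A family of cysteine protease inhibitors, read 3.24 and 3.47 in unstimulated WT DCs and 6.79, 6.52 and 5.85 after CpG. In the DKO it read 3.49 and 3.16, then 4.70, 4.07 and 4.68. The unstimulated groups overlapped, and the CpG groups did not. Csta3 exceeded the array median in the 3 WT CpG arrays alone, so it passed the filter only through the group where it was high. Its fitted difference of -1.87 ± 0.385 (adjusted p = 0.635) is a description, as its other values lie among dim signals. Stfa2l1, a stefin on the neutrophil marker list, had a difference of -1.57 ± 0.418 (adjusted p = 0.761), from 2.49 in WT and 0.91 in the DKO. Both genes read highest in WT CpG 1 and 2, the arrays highest in neutrophil markers. Without WT CpG 1 and without WT CpG 2 the difference was -1.67 and -1.81 for Csta3 and -1.52 and -1.43 for Stfa2l1. In the fit that included that marker level it was -1.83 and -1.51, and over all arrays left out in turn it ranged from -1.98 to -1.17 for Stfa2l1.

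Nox1, a catalytic subunit of NADPH oxidase, read 4.20 and 4.34 in unstimulated WT DCs and 6.29, 6.19 and 6.78 after CpG. In the DKO it read 4.72 and 4.74, then 5.50, 4.76 and 5.49, so the DKO CpG arrays reached no WT CpG array. The fitted difference was -1.63 ± 0.330 (adjusted p = 0.635). Il23r, a subunit of the interleukin-23 receptor, read 4.41 and 4.08 and then 6.40, 6.74 and 6.42 in WT, and 4.14 and 3.88 and then 5.35, 5.22 and 5.22 in the DKO. The CpG arrays of the genotypes did not overlap. The fitted difference was -1.02 ± 0.215 (adjusted p = 0.635). Like Csta3, Nox1 and Il23r passed the filter only through the 3 WT CpG arrays, and so did Fgfr3 below, so that their differences are descriptions. Passing through a single group, whichever of the 4 it was, held for 78 of all 13371 genes tested (0.583%) and for 16 of the 756 (2.12%).

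Apol10b, of the apolipoprotein L family, read 4.87 and 4.98 in unstimulated WT DCs and 6.30, 6.37 and 6.34 after CpG. In the DKO it read 5.14 and 5.19, then 5.84, 5.40 and 5.39. The DKO CpG arrays lay between the unstimulated and the CpG arrays of WT. The difference was -1.03 ± 0.203 (adjusted p = 0.635). Kcne3, an accessory subunit of potassium channels, differed by -0.78 ± 0.188 (adjusted p = 0.734) and the receptor tyrosine kinase gene Fgfr3 by -0.97 ± 0.238 (adjusted p = 0.734). Both rose in WT, by 1.23 and 1.04, and had changes of 0.45 and 0.07 in the DKO that did not pass. Prrt2, which encodes a transmembrane protein of synapses, and Cyp4a12b, a cytochrome P450, had opposite signs in the genotypes. Prrt2 rose by 0.56 in WT and fell by 0.47 in the DKO, and its difference was -1.03 ± 0.173 (adjusted p = 0.509). Cyp4a12b rose by 0.50 in WT and had a change of -0.35 in the DKO, a difference of -0.86 ± 0.195 (adjusted p = 0.713).

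Of the named genes with a higher effect in the DKO, the 10 of smallest p all had an effect below 0 in WT. None passed the adjusted threshold for the difference. Arhgap32, which encodes a GTPase-activating protein, read 7.84 and 7.69 in unstimulated WT DCs and 6.20, 6.15 and 6.26 after CpG. In the DKO it read 7.31 and 7.46, then 6.82, 7.42 and 6.97, so its unstimulated and CpG arrays overlapped in the DKO only. The difference was 1.24 ± 0.234 (adjusted p = 0.635). Cd59a, which encodes a membrane protein that blocks the complement membrane attack complex, read 6.09 and 6.02 and then 5.45, 5.32 and 5.54 in WT, and 5.41 and 4.99 and then 5.72, 5.69 and 5.55 in the DKO. It fell in WT by 0.61, its change in the DKO was 0.45 (adjusted p = 0.070), and the difference was 1.07 ± 0.200 (adjusted p = 0.635).

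Bank1, a scaffold protein of B cell receptor signalling, read 10.08 and 10.03 and then 8.57, 8.26 and 8.64 in WT, and 9.52 and 9.46 and then 8.89, 9.07 and 8.79 in the DKO. Bank1 fell in both genotypes, and the DKO arrays lay below WT before CpG and above WT afterwards. Its difference was 0.99 ± 0.199 (adjusted p = 0.635). Cd36, a scavenger receptor found on the cDC1 subset and on macrophages, read 9.06 and 9.10 and then 7.35, 7.41 and 7.14 in WT, and 8.88 and 8.29 and then 7.96, 8.16 and 7.75 in the DKO. All WT CpG arrays lay below all DKO CpG arrays, and the difference was 1.16 ± 0.256 (adjusted p = 0.697). Gpr34, a receptor for lysophosphatidylserine, fell 4.50-fold in WT and 2.02-fold in the DKO, a difference of 1.16 ± 0.249 (adjusted p = 0.635).

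The other 5 genes of this direction fell in WT and had no change in the DKO that passed the test. They were Dusp7, a phosphatase acting on the kinase ERK (difference 0.95), Gab3, an adaptor of receptor signalling (0.997), and Lrp5, a Wnt co-receptor (0.88). Atp10d, which RefSeq lists as a transcribed pseudogene, differed by 0.91 and Tmx1, a thioredoxin-like protein of the endoplasmic reticulum, by 0.93. Their adjusted p-values were 0.635, except 0.678 for Gab3.

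**Figure D1:**
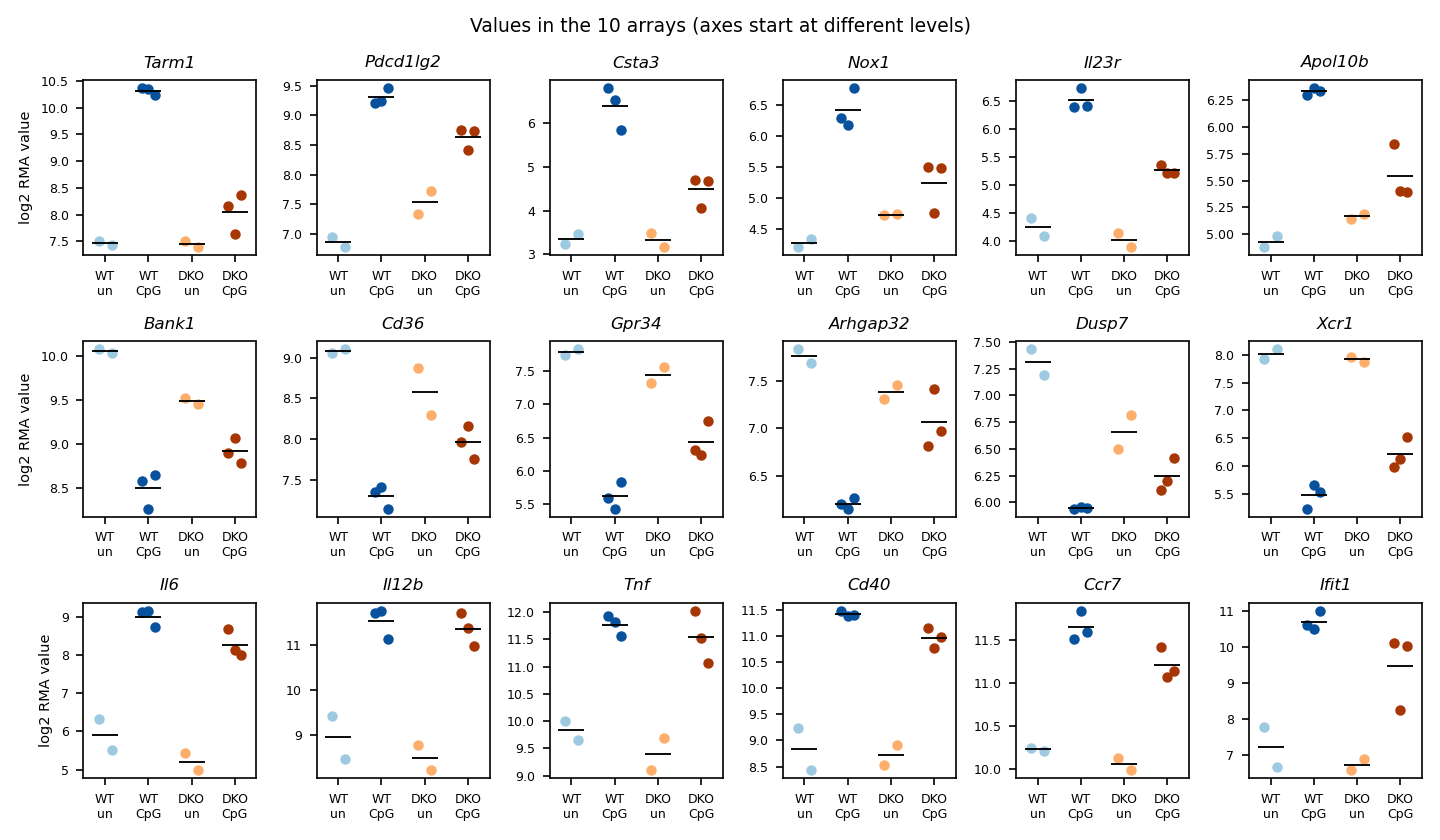
Log2 values of 18 genes in each of the 10 arrays (points) with group means (black lines), in unstimulated (un) and CpG-treated DCs of WT (blue) and DKO (orange) mice; each axis starts at its own level. In the top row Tarm1, Pdcd1lg2, Csta3, Nox1, Il23r and Apol10b lie higher in all WT CpG arrays than in any DKO CpG array. These genes were chosen by a small p of the difference, so their separation is no separate result. Csta3, Nox1 and Il23r passed the filter only through the WT CpG arrays. In the bottom row Il6, Il12b and Tnf rise by like amounts in both genotypes.

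Between the genotypes, the change under CpG was in general smaller in size in the DKO. To look at this without choosing genes by either genotype, CpG-responsive genes were taken by the CpG effect averaged over WT and DKO, which called 3978 genes or 29.8% of those tested, 1493 induced and 2485 repressed. With equal numbers of arrays in both genotypes and an equal spread, this average is uncorrelated with the difference of the effects. The median spread within groups over the responsive genes was 0.143 (SD) in WT and 0.186 in the DKO, so the spread was not quite equal.

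Of the 3978 responsive genes, 2903 or 73.0% had a smaller change in the DKO, against 60.2% of all genes tested and 54.7% of the 9393 genes not called for CpG. The median size of the change was 0.62 in WT and 0.48 in the DKO, which is 76.9% of the WT value. The share was 71.9% for induced genes, with median changes of 0.70 and 0.53, and 73.6% for repressed genes, with -0.59 and -0.45. The DKO median was 76.8% of the WT median for induced and 75.8% for repressed genes. An unadjusted p under 0.05 for the difference was found for 10.4% of the induced genes (140 lower and 16 higher) and 12% of the repressed genes (282 higher and 17 lower). The background was 5.65% over all genes, and 3.20% over the genes not called for CpG.

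**Figure D2:**
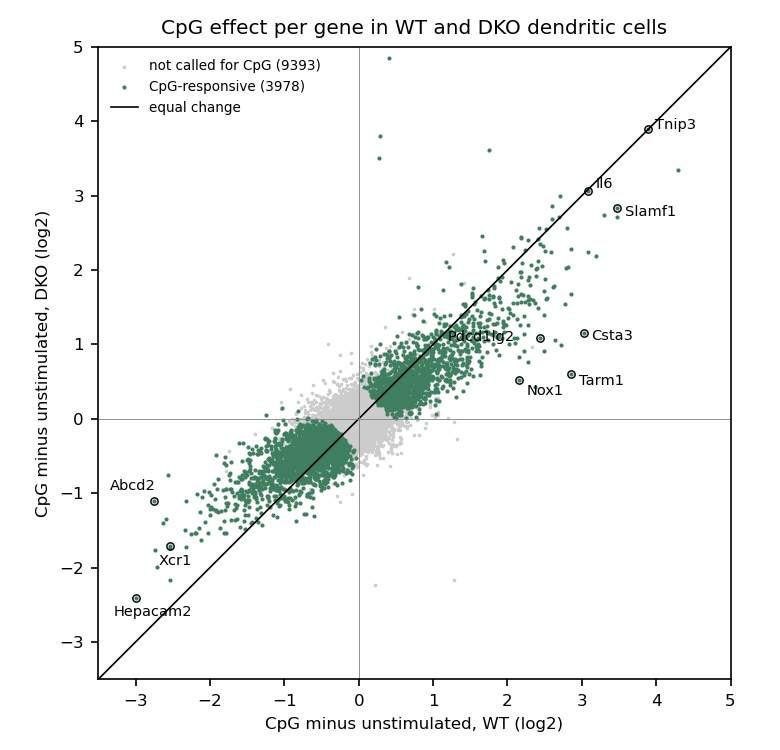
CpG effect of each of 13371 tested genes in WT (x axis, log2) and in DKO DCs (y axis, log2), with CpG-responsive genes in green and the line of equal change in black. Most responsive genes lie closer to 0 on the y axis than on the x axis, Tarm1 lies far below the line, and Tnip3 and Il6 lie on it.

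The difference in size was not the same at all sizes of response. Among genes induced by 1 to 2 on average, 246 of 299 changed less in the DKO, with medians of 1.48 in WT and 1.15 in the DKO. Among genes repressed by 1 to 2, 212 of 232 changed less, with medians of -1.46 and -0.99. The 56 genes induced by more than 2 stood closer together, at 2.48 and 2.24, and 37 of them changed less in the DKO. The 8 genes repressed by more than 2 all changed less, at -2.59 and -1.75. The strongest rises thus held 90.4% of their WT size in the DKO and the strongest falls 67.8%. These figures are medians over genes, with no test of the difference between the size classes. They were not computed with arrays left out. WT unstimulated 1 read above WT unstimulated 2 for some strong rises, such as Ifit1 (7.77 against 6.67) and Il12b (9.42 against 8.46). It read below it for Csta3 (3.24 against 3.47). The part of that array in these figures was not tested.

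These genes gave a response level per array, the median over genes of each array's value after centring each gene on its 4 group means. For the induced genes it was -0.281 and -0.313 in unstimulated WT, 0.399, 0.376 and 0.437 in WT CpG, -0.314 and -0.351 in unstimulated DKO and 0.284, 0.197 and 0.189 in DKO CpG. The unstimulated levels lay near each other, and each DKO CpG array lay below each WT CpG array. For the repressed genes it was 0.253 and 0.254, then -0.349, -0.363 and -0.353 in WT, and 0.300 and 0.276, then -0.256, -0.161 and -0.0730 in the DKO. All DKO CpG arrays again stopped short of the WT CpG arrays. The DKO CpG arrays were spread more widely than the WT CpG arrays. DKO CpG 3, which was low in macrophage markers, lay nearest to 0 in both sets, and the part of those markers in its level was not tested.

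**Figure D3:**
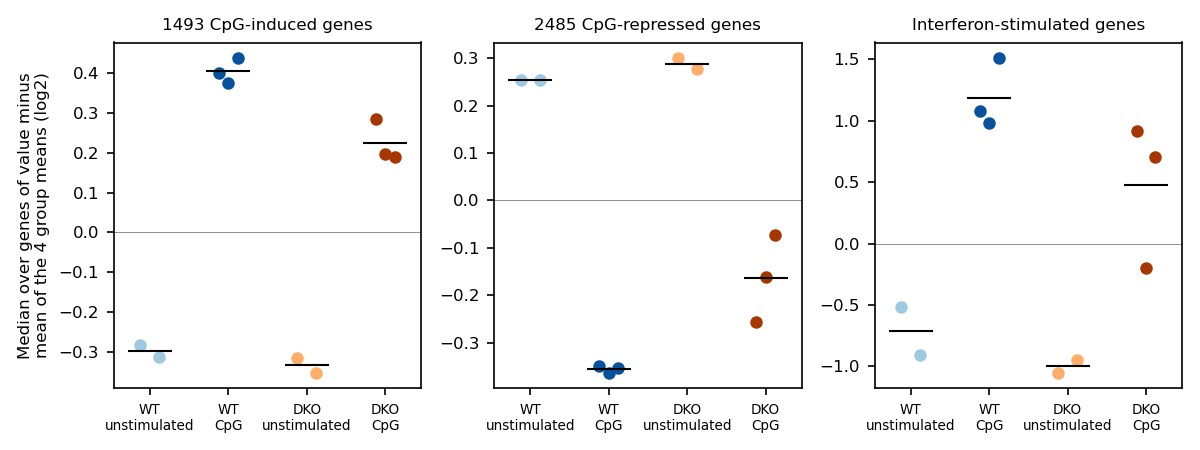
Median log2 value, relative to the mean of the 4 group means, of the 1493 CpG-induced genes, the 2485 CpG-repressed genes and the 47 interferon-stimulated genes in each array (points), with group means (black lines). In the first and second panels all 3 DKO CpG arrays lie nearer to 0 than all 3 WT CpG arrays, and in the third panel DKO CpG 2 lies far below the other DKO CpG arrays, at -0.195.

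The share of responsive genes with a smaller change in the DKO stayed between 66.7% and 76.2% when each array was left out in turn. The gap between the median sizes, 0.143 over all arrays, was then 0.109 to 0.183. In the first title series alone, which has 7 arrays, the gap was 0.0969 and the share 66.1%. Over the 7 arrays without Y-linked signal, which leave 1 DKO array per condition, the gap was 0.207 and the share 76.4%. The DKO arrays left there were DKO unstimulated 2 and DKO CpG 3, the pair low in macrophage markers. In each of these subsets the median size was smaller in the DKO.

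The 756 genes with an unadjusted p under 0.05 fell into 6 kinds by the direction of their effects. The most frequent was a smaller fall in the DKO, with 294 genes or 38.9%, against 27.4% of all genes tested. A smaller rise in the DKO was seen in 146 genes (19.3%, against 19%). A larger rise and a larger fall in the DKO held 18 genes each, 2.38%, against 12.7% and 15.4% of all genes. Opposite directions accounted for the rest, 148 genes up in WT and down in the DKO and 132 the other way. The genotypes stood further apart after CpG than before it in 479 of the 756 genes (63.4%), against 53.6% of all genes.

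Tests within each genotype gave unequal numbers of genes. CpG changed 2885 genes in WT (21.6% of those tested) and 1377 in the DKO (10.3%), and 1137 were called in both, all but 1 in the same direction. These shared genes were 39.4% of the WT calls and 82.6% of the DKO calls. Of the 1748 genes called in WT alone, 356 had an unadjusted p under 0.05 for the difference, against 756 of all 13371 genes. Tarm1 was the only 1 called for it. These 1748 genes were picked by the effects that make up the difference, so a raised count was built in and is no result. A call in WT alone did not by itself show a difference between the genotypes. Across all 13371 genes the effects in WT and DKO, which share no array, had a Pearson correlation of 0.827, and across the responsive genes 0.916. Genes are not independent replicates.

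The data also bound how large a difference could be. The 95% interval of the difference lay within 2-fold in either direction for 11414 genes, 85.4% of those tested, and the median SE was 0.213. That share was 88.6% for genes not called for CpG and 77.7% for responsive genes. It was 40.1% for genes induced by 1 to 2 and 32.3% for those repressed by 1 to 2. It was 19.6% for genes induced by more than 2, and 0 of the 8 genes repressed by more than 2. For most strong responders a 2-fold difference was thus not excluded. Only 82 genes had a fitted difference over 1 in size, and 5 of them were immunoglobulin variable segments. The 11 variable segments tested ranged from -3.45 to 4.45, with a median SE of 0.806, and none passed the adjusted threshold.

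Several of the strongest CpG responses had nearly equal fitted changes in both genotypes. Tnip3, which encodes a protein that restrains NF-kB, rose 14.8-fold in WT and 14.9-fold in the DKO, and the difference was 0.01 ± 0.510. Its arrays read 7.77 and 6.29 and then 10.89, 10.92 and 10.93 in WT, and 6.39 and 6.25 and then 10.19, 10.68 and 9.77 in the DKO. Each DKO CpG array thus lay below the WT CpG arrays, while the unstimulated arrays overlapped. The difference for Tnip3 was -0.73 without WT unstimulated 1. Over all arrays left out in turn it ranged from -0.73 to 0.75. Il6, an inflammatory cytokine gene, rose 8.52-fold and 8.34-fold, a difference of -0.03 ± 0.383 with a 95% interval from -0.88 to 0.82. Il6 read 6.31 and 5.51 and then 9.12, 9.15 and 8.72 in WT, and 5.43 and 4.98 and then 8.67, 8.14 and 7.99 in the DKO. The DKO was lower at both stages, by 0.70 before and by 0.73 after CpG.

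Il12b, the shared subunit of interleukins 12 and 23, rose 6.08-fold in WT and 7.29-fold in the DKO. Its difference was 0.26 ± 0.446 with an interval from -0.73 to 1.25. This was -0.22 without WT unstimulated 1, and over all arrays left out in turn it ranged from -0.22 to 0.74. Tnf rose 3.83-fold and 4.41-fold, a difference of 0.20 ± 0.376 with an interval from -0.63 to 1.04. Mab21l3 rose 6.52-fold and 8.02-fold, a difference of 0.30 ± 0.221. The intervals of Il6 and Mab21l3 lay within 2-fold either way, while those of Il12b, Tnf and Tnip3 reached past 2-fold on at least 1 side. The sign of the difference turned for Il6, Il12b, Tnf and Tnip3 under some alternatives, with no value called.

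Of the 10 genes with the largest rises, 6 changed less in the DKO, with differences from -0.99 to 0.30. Among all genes induced by more than 2 on average, 66.1% changed less. The largest difference among the 10 was that of Lipg, an endothelial lipase gene. Lipg rose by 3.19 in WT and 2.19 in the DKO (limma, adjusted p = 0.851). All of the 10 genes with the largest falls changed less in the DKO, with differences from 0.37 to 1.64, and 5 had an unadjusted p under 0.05. Among all genes repressed by 1 to 2 on average, 91.4% changed less and 27.6% had such a p, against 5.65% of all genes tested. The 10 largest falls included Xcr1, a chemokine receptor that marks the cDC1 subset, Tlr3, a receptor for double-stranded RNA, and Abcd2, a peroxisomal transporter of fatty acids. Abcd2 read 6.99 and 7.56 and then 4.57, 4.34 and 4.66 in WT, and 7.00 and 5.10 and then 5.18, 5.08 and 4.57 in the DKO. DKO unstimulated 2, the unstimulated array low in macrophage markers, stood low for Abcd2. The difference was 1.64 ± 0.612 (adjusted p = 0.815) with all arrays, 0.69 without that array and 2.59 without DKO unstimulated 1.

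**Figure D4:**
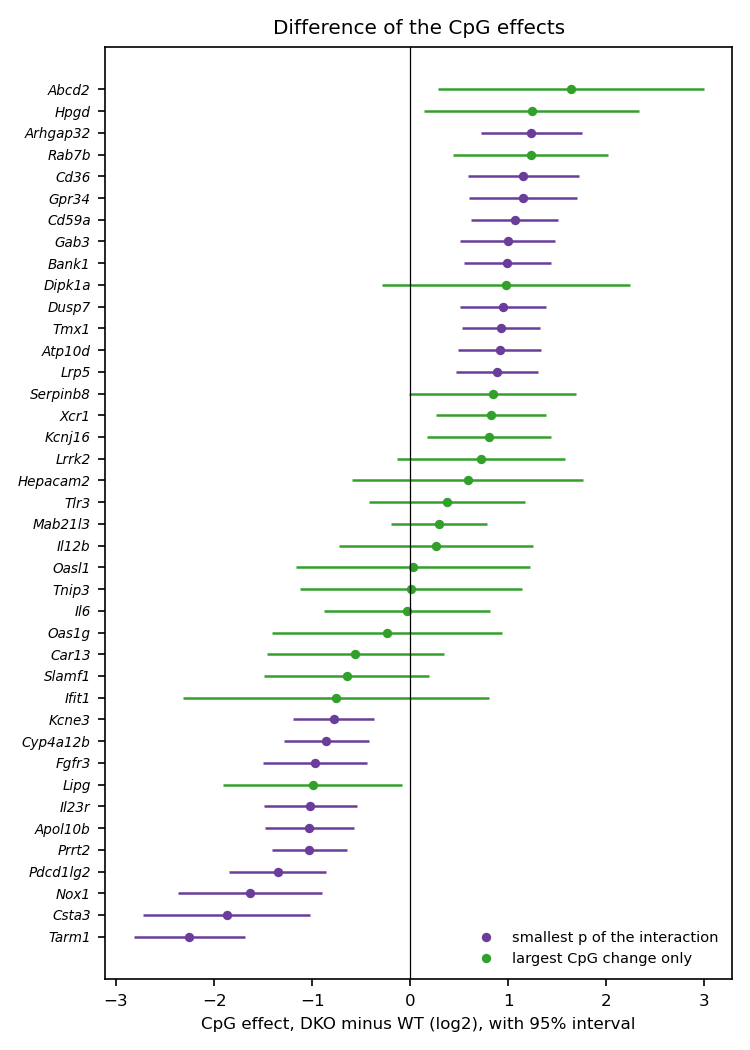
CpG effect in the DKO minus that in WT, on the log2 scale (points) with 95% intervals (lines). Purple marks the 10 named genes of smallest p in each direction, and green other genes with the largest CpG changes. Tarm1 lies lowest at -2.25, the green genes near 0 include Tnip3, Il6, Oasl1, Il12b and Mab21l3, and all 10 of the largest falls lie to the right of 0.

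Genes of DC maturation and costimulation mostly had lower fitted effects in the DKO. Of 35 tested members, 28 had a difference below 0. At an unadjusted p under 0.05, 5 had a lower effect (14.3%, against 2.33% of all genes in that direction) and 0 a higher one. Of the members, 32 were CpG-induced. Among all induced genes, 140 of 1493 had a lower effect at that threshold and 16 a higher one. Among those induced by 1 to 2, 48 of 299 were lower and 2 higher, and 82.3% changed less in the DKO. The list's share is thus not particular to it. Its median change was 1.34 in WT and 1.09 in the DKO, and its median difference was -0.26, against 0.02 over all genes tested. The 5 were Pdcd1lg2, Socs1, Ccl22, Il2ra and Il15ra. Socs1, a feedback inhibitor of cytokine receptor signalling, differed by -0.74 ± 0.224 (adjusted p = 0.761), and Il2ra, the interleukin-2 receptor alpha chain, by -0.83 ± 0.298 (adjusted p = 0.806). The median difference stayed between -0.32 and -0.19 as each array was left out.

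Some members had a difference nearer to 0 than the list's median and others did not. Cd80 and Cd86, the ligands of CD28, rose in both genotypes, by 0.92 and 0.75 for Cd80 and by 0.57 and 0.50 for Cd86. Their differences were -0.16 ± 0.184 and -0.08 ± 0.161, with intervals from -0.57 to 0.24 and from -0.43 to 0.28. Cd40, the receptor for T cell CD40 ligand, rose by 2.59 and 2.24, a difference of -0.35 ± 0.308. Ccr7, the receptor that guides DCs to T cell zones, rose by 1.41 and 1.14, a difference of -0.26 ± 0.202. Slamf1 rose 11.2-fold in WT and 7.12-fold in the DKO, a difference of -0.65 ± 0.379 (adjusted p = 0.914), and leaving out WT unstimulated 1 or 2 made it -1.19 or -0.11.

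Among chemokines, 3 of 19 had an unadjusted p under 0.05 for a lower effect (15.8%, against 2.33% of all genes) and 0 for a higher one. The list as a whole was split, 9 above 0 and 10 below. In it 14 members were CpG-induced, and 140 of all 1493 induced genes had a lower effect at that threshold. The 3 chemokines were Ccl17 and Ccl22, which both attract cells bearing CCR4, and Cxcl3, which attracts neutrophils. Ccl22 read 6.61 and 6.47 and then 8.50, 8.39 and 8.22 in WT, and 6.84 and 6.47 and then 7.99, 7.75 and 7.72 in the DKO. It rose in both genotypes and its CpG arrays did not overlap, and the difference was -0.66 ± 0.212 (adjusted p = 0.761). Ccl17 rose by 2.53 and 1.63, a difference of -0.90 ± 0.334 (adjusted p = 0.815). Cxcl3 read 7.76 and 7.60 in WT CpG 1 and 2, the arrays high in neutrophil markers, and 6.31 in WT CpG 3, against 5.65, 5.57 and 3.99 in the DKO, and differed by -1.73 ± 0.720 (adjusted p = 0.851). Without WT CpG 1 this was -1.46, without WT CpG 2 -1.54, without DKO CpG 3 -1.19 and -1.60 in the fit that included the neutrophil marker level.

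Inflammatory cytokines as a list differed little, with 15 of 26 below 0 and a median difference of -0.05. Lta, encoding lymphotoxin alpha, rose by 0.57 in WT and had a change of 0.05 in the DKO, a difference of -0.52 ± 0.183 (adjusted p = 0.797). Ebi3, a subunit of interleukin-27, rose by 1.73 and 1.33, a difference of -0.40 ± 0.176 (adjusted p = 0.871). These 2 were 7.69% of the list, against 2.33% of all genes, and no other member had an unadjusted p under 0.05. Of 33 NF-kB targets and feedback genes, 24 lay below 0, the median changes were 0.84 and 0.69, and 2 had a lower effect at an unadjusted p under 0.05 (6.06%, against 2.33% of all genes). These were Birc2, an inhibitor of apoptosis, at -0.70 ± 0.216 (adjusted p = 0.761), and Traf2, an adaptor of TNF receptors, at -0.43 ± 0.172 (adjusted p = 0.851). In the NF-kB list 29 members were CpG-induced, as were 15 of the cytokines. Over all induced genes, 140 of 1493 had a lower effect at that threshold.

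Interferon-stimulated genes lay lower in the DKO as a list but not gene by gene. Of 47 members, 43 had a difference below 0, with medians of 1.95 in WT and 1.42 in the DKO and a median difference of -0.50. At an unadjusted p under 0.05 there were 2, both lower (4.26%, against 2.33% of all genes in that direction). Of the members 45 were CpG-induced, and 140 of all 1493 induced genes had a lower effect at that threshold. The list's level in the arrays was -0.519 and -0.906 and then 1.08, 0.979 and 1.51 in WT, and -1.05 and -0.946 and then 0.913, -0.195 and 0.709 in the DKO. DKO CpG 2 stood far below the other CpG arrays. Without it 31 of 47 lay below 0 and 16 above, and the median difference was -0.23.

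Ifit1, an interferon-induced antiviral gene, shows that array. It read 7.77 and 6.67 and then 10.60, 10.48 and 10.99 in WT, and 6.58 and 6.90 and then 10.11, 8.24 and 10.02 in the DKO. Ifit1 rose in both genotypes, and 2 of the 3 DKO CpG arrays were within 1 log2 unit of the WT CpG arrays while DKO CpG 2 was lower. The difference was -0.76 ± 0.706 with an interval from -2.32 to 0.81 (adjusted p = 0.948). Oasl1, which restrains interferon production, rose by 2.69 and 2.71, a difference of 0.03 ± 0.538 whose sign turned under several alternatives. The 2 members with an unadjusted p under 0.05 were Samd9l, at -0.73 ± 0.261 (adjusted p = 0.797), and Epsti1, at -0.47 ± 0.204 (adjusted p = 0.866).

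Among induced genes, the interferon-response string in the promoter window went with larger CpG effects in both genotypes. Repressed genes with and without it had like medians, -0.60 and -0.59 in WT and -0.46 and -0.45 in the DKO. Of the 1493 induced genes, 1176 had a window, and 111 of these (9.44%) held it, against 3.83% of all 10478 tested genes with a window. Induced genes with the string had a median change of 1.07 in WT and 0.67 in the DKO, and 81.1% had a difference below 0, with a median of -0.27. Induced genes without it had medians of 0.67 and 0.53, and 71.3% were below 0, with a median of -0.13. The share below 0 also varied with the size of the response. It was 72.7% of all genes induced by 0.5 to 1, 82.3% of those induced by 1 to 2 and 66.1% of those induced by more than 2. Genes with the string were not compared with others of like response, so its own part in the share was not tested. For the NF-kB string the shares below 0 were 71.9% with and 72.2% without it, for the AP-1 string 72.6% and 72.2%, and for the cyclic AMP response string, held by 45 genes, 80.0% and 71.9%. The median difference was -0.18 with the last string and -0.14 without it. Interferon-stimulated genes stood low in DKO CpG 2, and the part of that array in this contrast was not tested.

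Presentation genes did not differ at the level of single genes. None of 21 class I and none of 17 class II presentation genes had an unadjusted p under 0.05. In the class I list 17 of 21 lay below 0, with medians of 0.17 in WT and 0.04 in the DKO. Nlrc5, the transactivator of class I genes, rose by 1.10 in WT and had a change of 0.71 in the DKO (adjusted p = 0.095), a difference of -0.39 ± 0.345. Tap1, a peptide transporter subunit, had changes of 0.66 and 0.47, a difference of -0.19 ± 0.233 with an interval from -0.70 to 0.33.

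In the pathway that reads CpG, the receptor gene Tlr9 differed by -0.13 ± 0.263, with an interval from -0.71 to 0.45. Of 39 Toll-like receptor pathway genes, 4 had an unadjusted p under 0.05 for a higher effect in the DKO (10.3%, against 3.32% of all genes) and 0 for a lower one. These were Tab1, a partner of the kinase TAK1 (0.76 ± 0.250, adjusted p = 0.773), Irak1, a kinase recruited by MYD88 (0.43 ± 0.163, adjusted p = 0.818), and the receptor genes Tlr5 (0.54 ± 0.192, adjusted p = 0.797) and Tlr12 (0.46 ± 0.184, adjusted p = 0.851). Tab1, Tlr5 and Tlr12 fell in WT. Of the 24 members that responded to CpG 21 changed less in the DKO, against 73.0% of all responsive genes.

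The deleted genes are themselves part of the comparison. C5ar1 read 5.75 and 6.02 in unstimulated WT DCs, 6.64, 7.32 and 5.51 after CpG, 4.42 and 4.56 in unstimulated DKO DCs and 4.99, 4.72 and 4.74 after CpG. C3ar1 read 5.95 and 5.80 and then 6.14, 6.31 and 6.59 in WT, and 5.64 and 5.27 and then 5.61, 5.55 and 5.34 in the DKO. Both were lower in all DKO arrays than in any WT array. The C5ar1 values in WT CpG were highest where neutrophil markers were highest. The difference of the CpG effects was -0.28 ± 0.546 for C5ar1 (limma, adjusted p = 0.976). It was -0.20 without WT CpG 1 and 0.14 without WT CpG 2. For C3ar1 the difference was -0.43 ± 0.234 (limma, adjusted p = 0.902). Where the probes of either gene lie with respect to the deleted sequence was not analysed here, so these values do not check the deletion.

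Of 20 complement genes tested, 15 had a difference above 0, with a median of 0.31, and 2 had an unadjusted p under 0.05, both higher (10%, against 3.32% of all genes). Beside Cd59a this was C5ar2, the second receptor for C5a, which fell by 0.59 in WT and had a change of -0.14 in the DKO, a difference of 0.46 ± 0.204 (adjusted p = 0.871). The list includes C1q and other genes of macrophages, and the median ranged from -0.02 to 0.45 as each array was left out. Cfb, a component of the alternative pathway, rose by 2.01 in WT and 1.35 in the DKO, a difference of -0.66 ± 0.444 (adjusted p = 0.925). Hc, the mouse gene of C5, rose by 0.79 in WT and had a change of 0.39 in the DKO, a difference of -0.40 ± 0.245 (adjusted p = 0.923).

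G protein and cyclic AMP signalling genes encode the machinery downstream of receptors such as C3AR1 and C5AR1. Of 28 tested, 8 or 28.6% had an unadjusted p under 0.05, against 5.65% of all genes, 6 with a higher and 2 with a lower effect in the DKO. All 15 members that responded to CpG changed less in the DKO, against 73.0% of all responsive genes, and 11 of the 15 fell. Over all repressed genes 12% had an unadjusted p under 0.05 (282 higher and 17 lower). It was 14% of those repressed by 0.5 to 1 and 27.6% of those repressed by 1 to 2. Like the other lists, this 1 was chosen with earlier results of these data known, so its share is a description. Gna15, a G protein alpha subunit of the Gq family, read 7.76 and 7.79 and then 5.91, 6.32 and 5.92 in WT, and 7.64 and 7.45 and then 6.74, 6.47 and 6.58 in the DKO. It fell in both genotypes with no overlap of the CpG arrays, and the difference was 0.78 ± 0.214 (adjusted p = 0.761).

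Arrb1, which encodes beta-arrestin 1, a protein that turns off G protein-coupled receptors, fell by 1.55 in WT and by 0.71 in the DKO, a difference of 0.84 ± 0.259 (adjusted p = 0.761). Arrb2, beta-arrestin 2, had changes of -0.24 and 0.33, a difference of 0.57 ± 0.191 (adjusted p = 0.793). Gng2, a G protein gamma subunit, fell by 0.60 in WT and had a change of -0.14 in the DKO, a difference of 0.46 ± 0.160 (adjusted p = 0.797). The other 4 were Plcb2 (0.86) and Grk6 (0.56), which were higher, and Adcy6 (-0.58) and Pik3r5 (-0.54), which were lower. The median difference of the list stayed between 0.10 and 0.21 as each array was left out.

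Markers of the cDC1 subset, which takes up dead cells and presents antigen to CD8 T cells, mostly had smaller fitted falls in the DKO. Of 25 tested, 21 had a difference above 0. At an unadjusted p under 0.05, 7 had a higher effect (28%, against 3.32% of all genes in that direction) and 0 a lower one. Of the 21 members that responded to CpG, 16 fell. Among all genes repressed by 1 to 2 on average, 64 of 232 had a higher effect at that threshold and 0 a lower one (27.6%). Among those repressed by 0.5 to 1, 144 of 1057 were higher and 4 lower (14%). The list's share is thus not particular to cDC1 markers. Its median change was -1.17 in WT and -0.45 in the DKO. The median difference of 0.46 stayed between 0.29 and 0.67 as each array was left out. In a bulk sample, fewer cells of a type and less RNA per cell cannot be told apart.

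Xcr1 read 7.93 and 8.10 and then 5.23, 5.66 and 5.54 in WT, and 7.97 and 7.87 and then 5.97, 6.12 and 6.53 in the DKO. The unstimulated arrays overlapped in range, and each DKO CpG array lay above each WT CpG array. Xcr1 fell 5.81-fold in WT and 3.28-fold in the DKO, a difference of 0.83 ± 0.253 (adjusted p = 0.761). Naaa, a lysosomal amidase, read 11.87 and 12.08 and then 10.17, 9.87 and 9.82 in WT, and 12.18 and 11.64 and then 10.74, 11.25 and 10.78 in the DKO. It followed the same pattern, with a difference of 1.03 ± 0.287 (adjusted p = 0.761).

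Rab7b, a small GTPase of the endosomal system, fell by 2.63 in WT and 1.40 in the DKO, a difference of 1.23 ± 0.356 (adjusted p = 0.761), and Gpr141b, an orphan receptor gene, had changes of -1.90 and -0.94, a difference of 0.96 ± 0.229 (adjusted p = 0.734). Cd36, Tlr12 and Plpp1 were the other 3. Plpp1, a lipid phosphatase gene, had changes of -1.24 and -0.27, a difference of 0.97. Markers of the cDC2 subset were split: 11 of 23 lay above 0 and 12 below, and the median changes were -0.23 and -0.22. At an unadjusted p under 0.05 there were 2, both lower (8.70%, against 2.33% of all genes in that direction). These were Irf4, a transcription factor of cDC2 cells, at -0.71 ± 0.290 (adjusted p = 0.851), and Sirpb1a at -0.82 ± 0.330 (adjusted p = 0.851). Among 18 markers of conventional DCs in general, Adam19 was the only one with an unadjusted p under 0.05, at 0.41 ± 0.182 (adjusted p = 0.871).

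**Figure D5:**
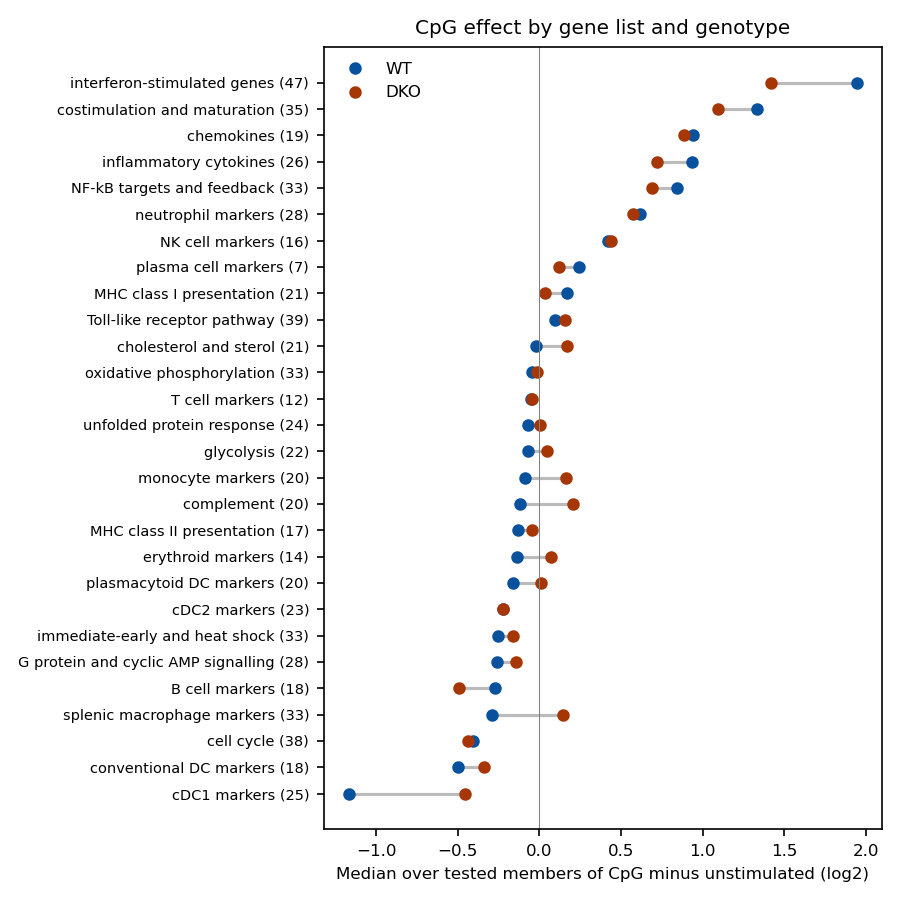
Median CpG effect over the tested members of each gene list (number in brackets) in WT (blue) and DKO DCs (orange), on the log2 scale, in order of the WT median. The cDC1 markers have the widest distance between the genotypes, from -1.17 to -0.45, followed by interferon-stimulated genes, from 1.95 to 1.42.

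Markers of other cell types showed few differences of their own. Splenic macrophage markers lay above 0 in 31 of 33, with a median of 0.42. Without DKO unstimulated 2 the split was 15 above and 18 below with a median of -0.14. At an unadjusted p under 0.05 there were 2, both higher (6.06%, against 3.32% of all genes in that direction). The 2 were Hpgd, an enzyme that degrades prostaglandins, at 1.24 ± 0.494 (adjusted p = 0.851), and Actn1, alpha-actinin 1, at 0.51 ± 0.229 (adjusted p = 0.871). Hpgd read 9.72 and 8.56 in the unstimulated DKO arrays, and its difference was 1.82 without the first and 0.66 without the second of them. Of 28 neutrophil markers, Stfa2l1 alone had an unadjusted p under 0.05 (3.57%, against 2.33% of all genes in the lower direction). Of 18 B cell markers, Bank1 was higher and Cxcr5, a chemokine receptor, lower at -0.79 ± 0.258 (limma, adjusted p = 0.773). These 2 were 11.1% of that list, against 5.65% of all genes. Among the 20 plasmacytoid DC markers Lair1, an inhibitory collagen receptor, was higher at 0.47 ± 0.199 (adjusted p = 0.858), and among the 7 plasma cell markers Irf4 was the only such member. No T cell (12), NK cell (16), monocyte (20) or erythroid marker (14) had an unadjusted p under 0.05.

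Cell cycle genes had like effects, with medians of -0.41 in WT and -0.44 in the DKO over 38 genes, 19 above and 19 below 0. The 4 members with an unadjusted p under 0.05 (10.5%, against 3.32% of all genes in that direction) were all higher, and all serve the start of DNA replication: Mcm2 (0.75 ± 0.222, adjusted p = 0.761), Mcm5 (0.64 ± 0.224, adjusted p = 0.797), Mcm3 (0.55 ± 0.248, adjusted p = 0.871) and Cdt1 (0.43 ± 0.191, adjusted p = 0.871). Mcm2, Mcm3 and Mcm5 fell in WT, by 1.12, 0.62 and 1.08, and did not pass in the DKO. All 23 cell cycle genes that responded to CpG fell. Over all repressed genes 12% had an unadjusted p under 0.05 (282 higher and 17 lower). Sterol synthesis genes had 2 of 21 with a higher effect at that threshold (9.52%, against 3.32%), Dhcr7 at 0.59 ± 0.198 (adjusted p = 0.793) and Nsdhl at 0.37 ± 0.150 (adjusted p = 0.851). Dusp6, a phosphatase of ERK, fell by 2.26 in WT and 1.55 in the DKO, a difference of 0.71 ± 0.189 (adjusted p = 0.761), and was the only one of 33 immediate-early and heat shock genes. No gene of oxidative phosphorylation (33), glycolysis (22) or the unfolded protein response (24) had an unadjusted p under 0.05.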

How the data were processed

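Each probe set's deposited value is a log2 intensity from RMA, run by the authors in Affymetrix Expression Console, per the submitters' processing notes. The sources used here do not state tool versions, genome build, annotation or whether arrays were normalised together. Of 41345 probe sets, 23521 had 1 gene symbol in the platform annotation, 1814 several and 16010 none, and the probe set with the highest mean was taken per gene. A gene was tested where it exceeded the array's median (5.50 to 5.56) in at least 2 of 10 arrays.

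From these values, limma (3.58.1, R 4.3.3; lmFit and eBayes, two-sided) fitted 4 group means over all 10 arrays, with 6 residual degrees of freedom and Benjamini-Hochberg adjustment over the 13371 genes, called at 0.05. The fit was tested on simulated data. Members and the 29 gene lists were chosen with earlier results of these data known. Named were called genes and the smallest p-values up to 10 per direction, at most 4 genes per list with an unadjusted p under 0.05, the 10 largest CpG changes each way, and set receptors, cytokines and costimulatory genes; predicted genes and variable segments were only counted. Adcy6, Il15ra, Pik3r5, Plcb2, Plpp1, Grk6 and Cacng8 were named after their values were seen. Alternatives were 12 other settings and each array left out. The amplification text names a first batch without assigning samples, so titles numbered 20 and over stood in for a second one.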

Additional observations from a re-analysis of the deposited data

Results flagged for a closer look

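The effect of CpG on Tarm1 differed between the genotypes by the test of the difference itself: -2.25 ± 0.256 on the log2 scale (limma, adjusted p = 0.0490), with a rise of 2.86 in WT and a change of 0.60 in the DKO. All 3 WT CpG arrays lay above all 3 DKO CpG arrays. The adjusted p passed the threshold by a small margin and did not pass under 5 of the 12 other settings.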

How the results depend on the processing

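The number of genes called for the difference of the CpG effects, 1 over all arrays, was 0 after quantile normalization, with the title series as a block, over the arrays without Y-linked signal, and with the neutrophil or the macrophage marker level as a covariate. It was 2 in the first title series alone, Tarm1 and an immunoglobulin kappa variable segment, and 0 to 1 with each array left out in turn. Without WT CpG 3 the gene called was that variable segment. The 756 genes with an unadjusted p under 0.05 became 1387 over the arrays without Y-linked signal and 550 to 1124 with an array left out. The gap between the median sizes of the CpG change, 0.143, was 0.0969 in the first title series, 0.207 over the arrays without Y-linked signal and 0.109 to 0.183 with an array left out. Of 98 named genes, 85 kept their direction under every setting run. Signs turned for Oasl1 with array weights (-0.14), in the first title series (-0.14) and with the neutrophil (-0.00474) or macrophage (-0.00884) level; for Il12b with the block (-0.0267) and in the first series (-0.0346); for Kdm5d with the block (-0.48), in the first series (-0.24) and with the macrophage level (-0.86); for Tnip3 with the block (-0.13), the Y-linked (-0.0243) or the macrophage level (-0.21) and over arrays without Y-linked signal (-0.37). Signs also turned for Tlr9 in the first series (0.0183), for Oas1g (0.51), Tap1 (0.0912) and Tnf (-0.57) over arrays without Y-linked signal, and for Il6 with the neutrophil level (0.00332). With an array left out the ranges that crossed 0 were -0.77 to 0.14 for C5ar1, -1.12 to 0.00263 for Car13, -0.75 to 0.0538 for Cd40, -0.21 to 0.0502 for Cd86, -0.22 to 0.74 for Il12b, -0.43 to 0.37 for Il6, -1.42 to 2.61 for Kdm5d, -0.60 to 0.17 for Oas1g, -0.32 to 0.48 for Oasl1, -0.39 to 0.0150 for Tap1, -0.29 to 0.00834 for Tlr9, -0.0900 to 0.50 for Tnf and -0.73 to 0.75 for Tnip3. None of these values was called, and the cause was not tested. The list values with arrays left out were chosen after seeing the data. No paired analysis was possible because the labels give no replicate numbers that groups share. Where an arm was left with 1 array, that array was assumed to vary like the other groups. With 2 or 3 arrays per group and no detection calls, differences in dim genes were not resolved.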
